A study of Homo sapiens with 70 samples.

Results

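The 7 genes described here are the colony stimulating factors CSF1, CSF2 and CSF3 and the cytokines IL24, IL15, TSLP and IL7, which were chosen by name from the 44503 genes counted in each of 3 RNA-seq tables. That choice was made with earlier results of these data known. CSF3, which encodes G-CSF, and CSF2, which encodes GM-CSF, rose in oncogene-induced senescence (OIS), while CSF1 and IL15 fell. Knock-down of HMGA1 raised CSF2 and IL24 in both growing and senescent fibroblasts, and raised CSF3 in growing cells, an effect that differed from the one in senescent cells. Knock-down of CEBPB in senescent cells took CSF3 and IL24 down 10.6-fold and 13.2-fold and raised CSF1 2.80-fold.

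Colony stimulating factors are secreted proteins that keep myeloid cells alive and make them divide and mature. CSF1 acts on macrophages and monocytes through a receptor tyrosine kinase, CSF2 on granulocytes and macrophages through a receptor with a shared beta chain, and CSF3 on neutrophils and their precursors. IL7 and IL15 maintain lymphocytes, TSLP acts on dendritic cells and type 2 immunity, and IL24 belongs to the IL-10 family and signals through receptors of the IL-20 family to JAK kinases and STAT3. Senescent fibroblasts are known for secreting inflammatory cytokines of this kind, which is called the senescence-associated secretory phenotype, and C/EBPβ, the product of CEBPB, is a known activator of that secretion.

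Libraries came from IMR90 human lung fibroblasts that carried the inducible oncogene ER:HRAS G12V in the retroviral vector pLNCX2, and from the human non-small cell lung carcinoma line H1299. Grow and OIS cells carried the empty pMSCV miR vector, Grow-shA1 and OIS-shA1 cells the same vector with a hairpin against HMGA1, and each of these 4 groups had 8 libraries. Grow-v-v and OIS-v-v cells carried both empty vectors (pSuper and pMSCV miR), while a hairpin against CEBPB was carried by OIS-shCEBPB cells, the shp53 hairpin by OIS-shp53 cells and both by OIS-shCEBPB-shp53 cells, with 5 libraries per group. H1299 cells with the empty pMSCV miR vector gave 7 libraries and H1299-shA1 cells 6. All OIS groups had been given 100 nM of 4-hydroxytamoxifen (4OHT) for 6 days, and the Grow groups had not, so that the drug and the oncogene cannot be told apart. All fibroblast groups shared the transgene, each gene was targeted with 1 hairpin, and the fibroblasts were kept at lower oxygen than H1299 cells. The labels describe biological replicates but give a different number of them than the tables hold, and where no separate cultures are named a p-value measures only the spread between these libraries.

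HMGA1 and CEBPB were lower in every library that carried a hairpin against them. HMGA1 averaged 479 CPM (counts scaled to library size with TMM factors) in Grow and 34.6 in Grow-shA1, 737 in OIS and 59.9 in OIS-shA1, and 1889 in H1299 and 380 in H1299-shA1. CEBPB averaged 297 CPM in OIS-v-v, 35.5 in OIS-shCEBPB and 32.5 in OIS-shCEBPB-shp53. All 8 fibroblast markers were above 1 CPM in the IMR90 groups, and of 6 leukocyte markers only CD68 was. EPCAM and CDH1 averaged 0.147 and 0.276 CPM in H1299, while KRT8 and KRT18 averaged 495 and 445 CPM. Totals ran from 13904974 to 24890797 counts per library except in OIS replicate 4, with 1903607, and leaving that library out changed no call among the members. In the second IMR90 table replicates 1 to 3 stood apart from replicates 4 and 5 in every group, and effects are given for each set after the results of that table.

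On the hg19 genome CSF1 (ENSG00000184371) lies at chr1:110452864-110473614, CSF2 (ENSG00000164400) at chr5:131409483-131411859, CSF3 (ENSG00000108342) at chr17:38171614-38174066, IL24 (ENSG00000162892) at chr1:207070788-207077484, IL15 (ENSG00000164136) at chr4:142557752-142655140 and TSLP (ENSG00000145777) at chr5:110405760-110413722, all on the plus strand. The exons of TSLP share 5.37% of their bases with the gene model ENSG00000253613, and where reads were counted without strand, reads from such a stretch cannot be told apart. The exons of the other 5 genes overlap no other gene. IL7 is placed where it is first tested.

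Promoter sequence was available for only 3 members, CSF2, IL24 and TSLP, and is shown for CSF2 and IL24. They were picked because both rose with HMGA1 knock-down, and with CEBPB knock-down IL24 fell while CSF2 did not pass the test over all 5 libraries. CSF2 went in opposite directions in 2 sets of these libraries, at -0.62 in replicates 1 to 3 and 0.27 in replicates 4 and 5 on the log2 scale. The 250 bases before the annotated start come from RefSeq on GRCh38.p14, at chr5:132073539-132073788 for CSF2 and chr1:206897193-206897442 for IL24, both on the plus strand, and capitals mark a match to the kappa B motif.
CSF2: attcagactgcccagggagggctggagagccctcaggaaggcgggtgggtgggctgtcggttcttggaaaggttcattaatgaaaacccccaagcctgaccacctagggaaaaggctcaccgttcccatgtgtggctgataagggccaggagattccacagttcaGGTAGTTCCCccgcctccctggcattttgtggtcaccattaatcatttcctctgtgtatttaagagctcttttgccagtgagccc
IL24: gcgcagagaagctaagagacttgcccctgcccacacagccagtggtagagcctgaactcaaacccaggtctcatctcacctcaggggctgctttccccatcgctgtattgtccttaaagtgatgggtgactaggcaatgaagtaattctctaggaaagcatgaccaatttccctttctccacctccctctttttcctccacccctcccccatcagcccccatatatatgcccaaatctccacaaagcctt
The search covered both strands for the kappa B motif GGGNNNNNCC, the C/EBP motif TTNNGNAA and the AP-1 motif TGANTCA. In CSF2 the match, read on the other strand, lay 85 to 76 bases before the start and overlapped no other motif searched. None of these letters was found in the IL24 window, which says nothing of the factors themselves. Of all 35116 promoter windows of this length, 54.4% held the kappa B motif, 33.2% the C/EBP motif and 6.57% the AP-1 motif, so that a match is common. TSLP had 3 start sites in RefSeq, of which 2 had a kappa B match, at 191 to 182 and 185 to 176 bases before the start. No sequence is given for CSF1, CSF3, IL15 and IL7.

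The 7 genes covered a wide range of expression. In growing IMR90 cells (Grow), CSF2 had the highest level per length, 55.5 ± 11.8 CPM per kb of exon (SD, n = 8), before IL24 (24.6 ± 14.5), CSF1 (9.18 ± 0.544), CSF3 (3.94 ± 3.57), IL15 (0.492 ± 0.102), TSLP (0.369 ± 0.154) and IL7 (0.0466 ± 0.0529). In OIS, CSF3 and CSF2 stood side by side at 203 ± 27.1 and 202 ± 19.8 CPM per kb, far above IL24 at 22.7 ± 2.14 and CSF1 at 3.08 ± 0.432. In H1299 the order was another one, with CSF1 at 0.430 ± 0.0922 and IL7 at 0.366 ± 0.0545 CPM per kb (n = 7) at the top. The 4 genes CSF2, CSF3, IL24 and TSLP were near 0 in H1299.

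The first question was which of these cytokines change when growing fibroblasts enter senescence. In OIS against Grow, 4 of the 6 members tested passed the threshold (2 higher and 2 lower), where 74.8% of all 13304 genes tested did, so that the share was no higher than the background. In OIS-v-v against Grow-v-v, 5 of 6 passed (2 higher and 3 lower) against 45.8% of all genes. IL7 was below the count filter in both. The largest change was that of CSF3, and both tables gave the same directions for the 4 genes called in each, CSF2, CSF3, CSF1 and IL15. The tables were normalized separately, and the difference between them was not tested.

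CSF3, the neutrophil factor, ran from 1.63 to 26.7 CPM in Grow with a median of 6.96, and from 345 to 524 CPM in OIS with a median of 465. Every OIS library was above all of Grow, and Grow replicate 1 held the highest of the growing values. The log2 fold change was 5.78 (SE 0.26, adjusted p = 8.14e-18, edgeR quasi-likelihood test with Benjamini-Hochberg adjustment), or 54.7-fold, and only 0.308% of genes changed by more. In the other table CSF3 read 24.8, 32.1, 36.1, 38.9 and 100.2 CPM in Grow-v-v and 400, 402, 387, 613 and 667 CPM in OIS-v-v. The groups did not overlap, Grow-v-v replicate 5 was far above the other growing libraries, and the log2 fold change was 3.42 (SE 0.36, edgeR adjusted p = 9.36e-06).

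CSF2, the granulocyte and macrophage factor, ran from 31.6 to 64.1 CPM (median 43.4) in Grow and from 125 to 174 CPM (median 165) in OIS. All 8 OIS libraries were above the growing ones, with a log2 fold change of 1.91 (SE 0.09, edgeR adjusted p = 8.8e-18). In Grow-v-v it read 35.4, 36.2, 43.6, 49.4 and 72.8 CPM and in OIS-v-v 332, 315, 322, 273 and 280 CPM. Again no libraries overlapped, and the log2 fold change was 2.69 (SE 0.18, edgeR adjusted p = 2.58e-07).

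CSF1, the macrophage factor, went the other way. It ran from 45.4 to 53.6 CPM (median 49.9) in Grow and from 14.3 to 21.5 CPM (median 16.7) in OIS, with no overlap and a log2 fold change of -1.56 (SE 0.07, edgeR adjusted p = 5.4e-18). In Grow-v-v it read 44.5, 47.3, 45.3, 45.01 and 44.0 CPM and in OIS-v-v 16.4, 17.7, 17.2, 15.8 and 13.8 CPM. All 5 senescent libraries were lower, by 1.48 on the log2 scale (log2 fold change -1.48, SE 0.09, edgeR adjusted p = 6.93e-08).

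IL15, which sustains natural killer cells and memory T cells, also fell, at a much lower level. It ran from 2.72 to 5.41 CPM (median 3.79, 42 to 99 counts) in Grow and from 0.488 to 2.37 CPM (median 1.53, 1 to 45 counts) in OIS. The groups did not overlap, the lowest value was that of the shallow OIS replicate 4, and the log2 fold change was -1.29 (SE 0.18, edgeR adjusted p = 2.17e-07). In Grow-v-v it read 3.66, 2.98, 3.53, 3.42 and 3.79 CPM and in OIS-v-v 1.46, 1.19, 0.937, 1.14 and 1.21 CPM, again apart, with a log2 fold change of -1.54 (SE 0.16, edgeR adjusted p = 9.92e-06).

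IL24 did not pass the threshold in either table. Its values ran from 16.5 to 108 CPM (median 37.9) in Grow and from 39.1 to 50.7 CPM (median 45.9) in OIS, so that the growing libraries lay on both sides of the senescent ones, and the log2 fold change was -0.10 (95% interval -0.52 to 0.32, edgeR adjusted p = 0.686). Without Grow replicate 1 it was 0.14. The spread between libraries was 59.0% of the mean in Grow and 9.43% in OIS. In Grow-v-v IL24 read 35.1, 45, 47.9, 11.8 and 21.8 CPM and in OIS-v-v 46.2, 40.9, 42.5, 34.6 and 39.1 CPM, with a log2 fold change of 0.33 (SE 0.29, edgeR adjusted p = 0.373).

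TSLP, a cytokine of epithelial and stromal cells, ran from 0.713 to 2.68 CPM (median 1.36) in Grow and from 0.488 to 1.58 CPM (median 1.21) in OIS, and its log2 fold change of -0.34 (SE 0.24, edgeR adjusted p = 0.20) was within the spread. In Grow-v-v it read 3.06, 2.98, 3.81, 1.23 and 0.632 CPM and in OIS-v-v 0.675, 0.298, 0.644, 0.761 and 0.724 CPM. The fall of 1.92 on the log2 scale (log2 fold change -1.92, SE 0.44, edgeR adjusted p = 0.00322) passed the threshold although Grow-v-v replicate 5 lay among the senescent values. IL7, the lymphocyte survival factor, was at 0 to 8 counts per library in Grow and 0 to 14 in OIS, below the count filter, and without a filter beyond 1 count its log2 fold change was 0.79 (SE 0.59, edgeR adjusted p = 0.289) there and 0.34 (SE 0.715, edgeR adjusted p = 0.759) in OIS-v-v against Grow-v-v.

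Most fibroblast markers fell with senescence. The 8 summed to between 37340 and 46390 CPM in Grow and between 5545 and 6842 CPM in OIS, and to between 39550 and 51630 CPM in Grow-v-v and between 13750 and 21270 CPM in OIS-v-v. COL1A1 and COL1A2, at 23110 and 12170 CPM on average in Grow, made up most of the sum. VIM overlapped between Grow and OIS (2695 to 3526 and 2020 to 2793 CPM), and VIM and LUM overlapped between Grow-v-v and OIS-v-v. The other markers were below all growing libraries of their table. CD68, the leukocyte marker seen, averaged 19.1 CPM in Grow and 52.3 in OIS. PTPRC, CD14, LYZ, CD3E and ITGAM were under 1 CPM on average in all IMR90 groups. The part of these shifts in the cytokine results was not tested. In bulk RNA, fewer cells expressing a gene and less RNA per cell cannot be told apart.

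**Figure D1:**
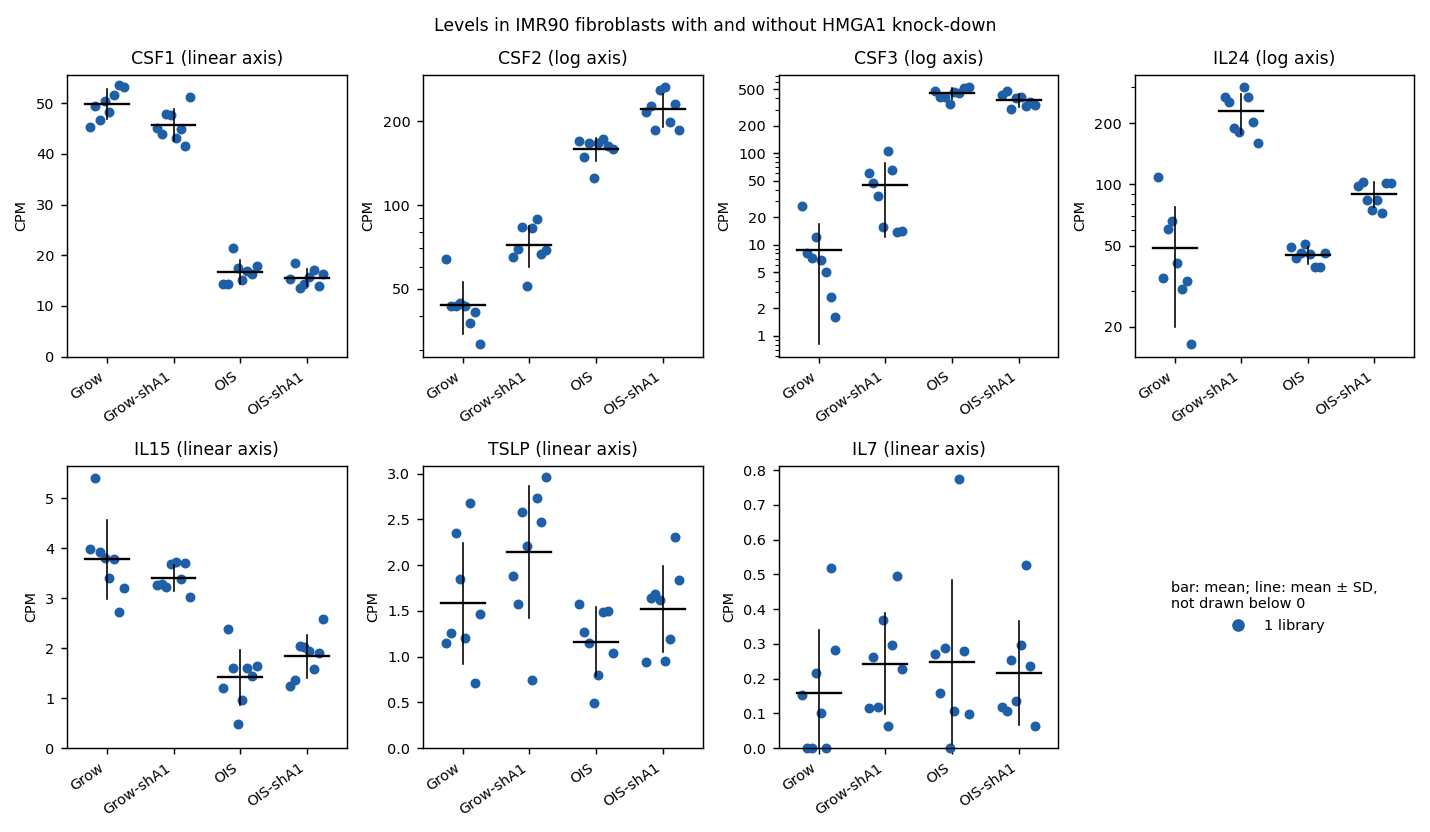
Level of each gene in CPM (vertical axis, linear or log as marked above each panel) in 8 libraries per group of growing and senescent IMR90 cells with and without shA1, with a point per library, a bar at the mean and a line of 1 SD to each side. CSF3 spans 1.63 to 26.7 CPM in Grow and 345 to 524 CPM in OIS, and IL24 is highest in Grow-shA1, at 160 to 299 CPM.

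The second question was how HMGA1, a chromatin protein that binds AT-rich DNA, bears on these genes in growing and in senescent cells. In Grow-shA1 against Grow, 4 of 6 members tested passed the threshold (3 higher and 1 lower), where 29.9% of 13072 genes did. In OIS-shA1 against OIS, 3 of 6 passed (2 higher and 1 lower), where 35.9% of 13327 did. Members had a median of 0.58 in growing and 0.28 in senescent cells on the log2 fold change scale, against 0.0067 and -0.00022 over all genes tested. The members were chosen with earlier results of these data known, so such a difference can come from the choice. For the term that compares the 2 effects of the hairpin, 2 of 6 members passed, both lower, where 23.6% of 13903 genes did.

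IL24 rose in both states, with no overlap between groups. In Grow-shA1 it ran from 160 to 299 CPM (median 229), above all of Grow, and its log2 fold change of 2.23 (SE 0.23, edgeR adjusted p = 3.36e-08), or 4.70-fold, ranked 5 from the top of 13072 genes. In OIS-shA1 it ran from 72.3 to 103 CPM (median 90.8), above every OIS library, with a log2 fold change of 1.01 (SE 0.07, edgeR adjusted p = 2.7e-11), or 2.01-fold. The effect was smaller in senescent cells by 1.22 on the log2 scale (interaction term -1.22, SE 0.27, edgeR adjusted p = 6.18e-04). In the order of levels, OIS and Grow did not differ beyond their spread, OIS-shA1 overlapped with Grow, and Grow-shA1 stood above all.

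CSF2 rose in both states too. It ran from 51.0 to 89.1 CPM (median 69.3) in Grow-shA1, where 7 of 8 libraries were above all of Grow, and the log2 fold change was 0.73 (SE 0.11, edgeR adjusted p = 6.69e-06). In OIS-shA1 it ran from 186 to 265 CPM (median 222), above all OIS libraries, with a log2 fold change of 0.46 (SE 0.07, edgeR adjusted p = 6.12e-06). The interaction term was -0.27 (SE 0.14, edgeR adjusted p = 0.151), and without Grow replicate 1, which held the highest growing CSF2, it was -0.36 (edgeR adjusted p = 0.0256).

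CSF3 rose with the hairpin in growing cells. It ran from 13.8 to 107 CPM (median 40.5) in Grow-shA1, and 5 of 8 libraries were above all of Grow, with a log2 fold change of 2.40 (SE 0.43, edgeR adjusted p = 9.11e-05). In OIS-shA1 it ran from 307 to 480 CPM (median 382), overlapping OIS, and was lower by 0.25 on the log2 scale (log2 fold change -0.25, SE 0.08, edgeR adjusted p = 0.0161). That second call was lost with DESeq2 (adjusted p = 0.0549) and with all 4 groups in 1 edgeR fit (adjusted p = 0.479). The interaction term was -2.66 (SE 0.43, edgeR adjusted p = 9.5e-06), which ranked 10 from the bottom of 13903 genes. Both rest on the Grow level of CSF3, a mean of 8.76 CPM. Growing cells of the second table with empty vectors (Grow-v-v) averaged 46.4 CPM, from 24.8 to 100.2, inside the range of Grow-shA1. The tables were normalized separately, and this difference between growing controls was not tested.

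CSF1 ran from 41.6 to 51.2 CPM (median 44.98) in Grow-shA1, overlapping Grow. The log2 fold change of -0.13 (SE 0.05, edgeR adjusted p = 0.0462) passed the threshold by a small margin, and did not pass in 11 of 16 fits that left out a library, where the adjusted p ran from 0.0162 to 0.0984. It was also lost in edgeR fits with library sizes alone (adjusted p = 0.12), without a filter (0.0843) and with all 4 groups (0.133). In OIS-shA1 it ran from 13.5 to 18.5 CPM (median 15.5), with a log2 fold change of -0.09 (95% interval -0.26 to 0.07, edgeR adjusted p = 0.422).

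IL15 and TSLP did not pass in either state. IL15 ran from 3.02 to 3.73 CPM (median 3.33) in Grow-shA1 and from 1.23 to 2.59 CPM (median 1.92) in OIS-shA1, and its log2 fold changes were -0.15 (95% interval -0.40 to 0.10, edgeR adjusted p = 0.40) and 0.27 (95% interval -0.13 to 0.66, edgeR adjusted p = 0.321). TSLP ran from 0.746 to 2.96 CPM (median 2.34) in Grow-shA1 and from 0.941 to 2.31 CPM (median 1.63) in OIS-shA1, and its log2 fold changes were 0.43 (95% interval -0.05 to 0.92, edgeR adjusted p = 0.201) and 0.29 (95% interval -0.14 to 0.71, edgeR adjusted p = 0.316). IL7 held 1 to 8 counts per library in Grow-shA1 and 1 to 12 in OIS-shA1, and without a filter beyond 1 count its log2 fold changes were 0.61 (edgeR adjusted p = 0.525) and -0.28 (edgeR adjusted p = 0.74).

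Some values moved beside the hairpin. The 8 fibroblast markers summed to between 27860 and 33310 CPM in Grow-shA1, below all of Grow, and to between 6083 and 7067 CPM in OIS-shA1, overlapping OIS. The list did not move as one in OIS-shA1, where DCN averaged 95.5 CPM against 22.5 in OIS and COL1A2 1242 against 929, both above all of OIS, and PDGFRB averaged 82.2 against 127 CPM, below all of OIS. In Grow-shA1, COL1A1, COL1A2 and THY1 were below all of Grow, while LUM averaged 118 CPM against 96.9 and DCN 231 against 170, with overlap. CEBPB was higher in Grow-shA1 (log2 fold change 0.34, SE 0.09, edgeR adjusted p = 0.00317) and OIS-shA1 (0.18, SE 0.06, edgeR adjusted p = 0.0283). Their part in the result was not tested. Within Grow, replicate 1 held the highest and replicate 8 the lowest CSF2, CSF3 and IL24 values.

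**Figure D2:**
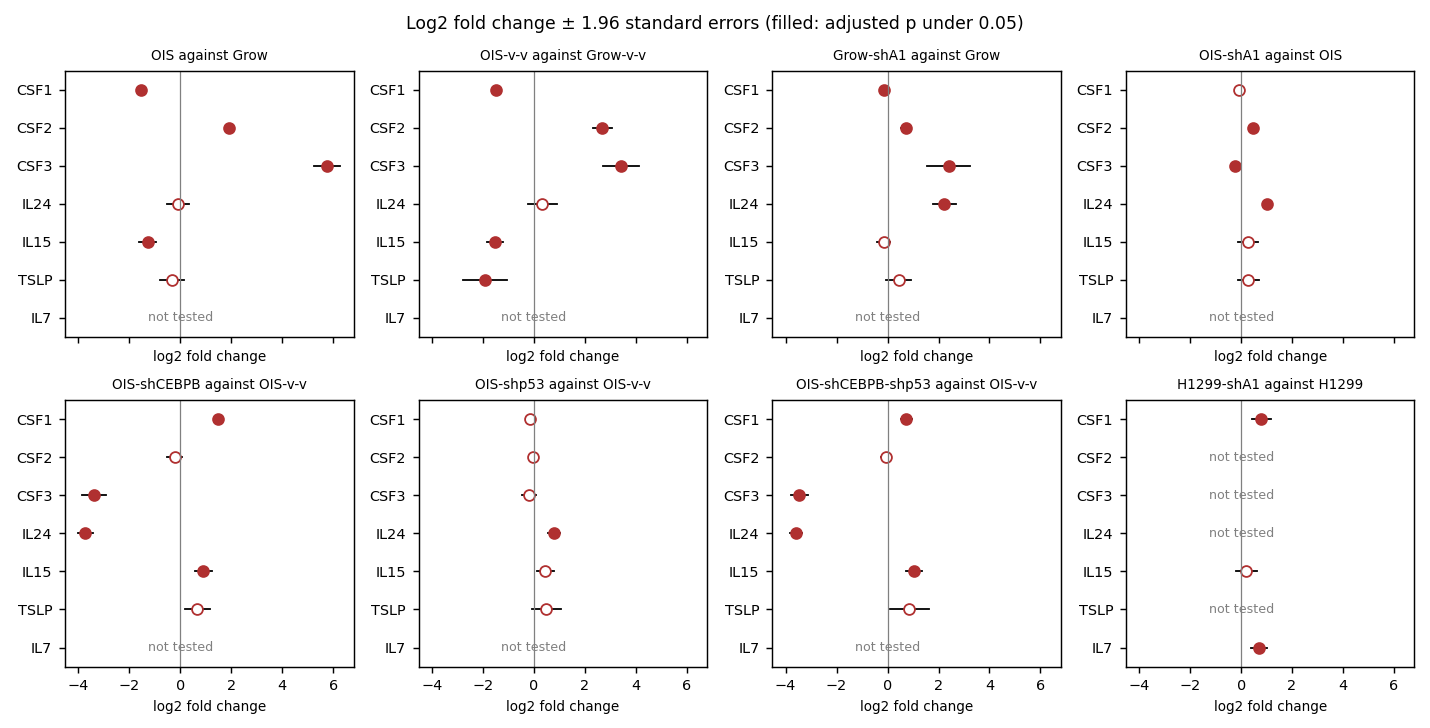
Log2 fold change of each gene (horizontal axis, with lines for the 95% interval) in 8 comparisons between groups, filled where the edgeR adjusted p was under 0.05. CSF3 lies at 5.78 in OIS against Grow and at -3.40 in OIS-shCEBPB against OIS-v-v, and CSF1 lies at -1.56 and 1.49 in the same comparisons.

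The third question was how these genes respond to shCEBPB and shp53 in senescent cells. The 3 knock-down groups were each compared with the same OIS-v-v libraries, which also entered the comparison with Grow-v-v, so that all 4 sets of results share these libraries. With shCEBPB, 4 of 6 members passed the threshold (2 higher and 2 lower), where 17.1% of 13396 genes did. With shp53, 1 of 6 passed (higher), where 4.44% of 13378 did. With both hairpins, 4 of 6 passed (2 higher and 2 lower), where 33.6% of 13388 did. With the replicate number as a block, edgeR called 4270 genes with shCEBPB in place of 2290 and 3037 with shp53 in place of 594, with the same members called. The median size of the log2 fold change with shCEBPB was 1.20 among the 6 members and 0.14 among all genes tested, a difference that can also come from how the members were chosen.

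CSF3 read 34.7, 33.9, 39.5, 59.7 and 65.6 CPM in OIS-shCEBPB. These values were all under the 387 to 667 CPM of OIS-v-v, with a log2 fold change of -3.40 (SE 0.24, edgeR adjusted p = 1.71e-06), and their mean of 46.7 CPM lay beside the 46.4 CPM of growing Grow-v-v cells, a pair that was not tested. In OIS-shp53 CSF3 read 426, 424, 453, 429 and 427 CPM, inside the range of OIS-v-v, with a log2 fold change of -0.19 (95% interval -0.49 to 0.10, edgeR adjusted p = 0.515). With both hairpins it read 42.2, 40.5, 41.5, 45.8 and 53.3 CPM, all below OIS-v-v, with a log2 fold change of -3.47 (SE 0.17, edgeR adjusted p = 4.3e-08).

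IL24 read 3.98, 3.55, 3.19, 2.27 and 2.42 CPM in OIS-shCEBPB and 3.60, 4.05, 3.21, 2.62 and 3.35 CPM with both hairpins. All of these lay under the 34.6 to 46.2 CPM of OIS-v-v and also under the 11.8 to 47.9 CPM of Grow-v-v. The log2 fold changes were -3.73 (SE 0.15, edgeR adjusted p = 1.84e-08) and -3.59 (SE 0.12, edgeR adjusted p = 2.09e-09), or 13.2-fold and 12.1-fold lower, and the first ranked 8 from the bottom of 13396 genes. In OIS-shp53 IL24 rose, to 76.9, 76.5, 82.2, 56.4 and 58.7 CPM, above every OIS-v-v library, with a log2 fold change of 0.79 (SE 0.12, edgeR adjusted p = 0.00267). It was the one member that passed with shp53.

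CSF1 read 46.9, 48.8, 45.3, 43.4 and 42.0 CPM in OIS-shCEBPB, all above the 13.8 to 17.7 CPM of OIS-v-v, with a log2 fold change of 1.49 (SE 0.08, edgeR adjusted p = 1.62e-07). The mean of 45.3 ± 2.71 CPM (SD, n = 5) lay beside the 45.2 ± 1.25 CPM of Grow-v-v, and the 2 groups overlapped. In OIS-shp53 it read 13.04, 14.8, 13.4, 15.4 and 15.98 CPM, with a log2 fold change of -0.16 (95% interval -0.33 to 0.02, edgeR adjusted p = 0.368). With both hairpins it read 29.5, 31.1, 28.5, 21.9 and 23.4 CPM, between OIS-v-v and OIS-shCEBPB with no overlap with either, and rose by 0.73 on the log2 scale (SE 0.11, edgeR adjusted p = 3.17e-04).

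IL15 read 2.22, 2.17, 2.27, 1.89 and 2.65 CPM in OIS-shCEBPB, above all of OIS-v-v, with a log2 fold change of 0.91 (SE 0.17, edgeR adjusted p = 0.00236). In OIS-shp53 it read 1.46, 1.32, 1.58, 1.78 and 1.95 CPM, with a log2 fold change of 0.44 (SE 0.17, edgeR adjusted p = 0.186). With both hairpins it read 2.92, 2.50, 2.34, 2.05 and 2.51 CPM, above all of OIS-v-v and below all of Grow-v-v, with a log2 fold change of 1.04 (SE 0.16, edgeR adjusted p = 4.24e-04).

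CSF2 did not pass with any hairpin. It read 216, 200, 219, 317 and 349 CPM in OIS-shCEBPB, 320, 300, 308, 274 and 287 CPM in OIS-shp53, and 267, 260, 260, 318 and 346 CPM with both. The log2 fold changes were -0.23 (95% interval -0.52 to 0.07, edgeR adjusted p = 0.362), -0.03 (95% interval -0.16 to 0.10, edgeR adjusted p = 0.846) and -0.07 (95% interval -0.26 to 0.11, edgeR adjusted p = 0.592). All 5 libraries of each senescent group were above the 35.4 to 72.8 CPM of Grow-v-v.

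TSLP read 0.717, 1.06, 0.873, 1.09 and 1.18 CPM in OIS-shCEBPB, 1.25, 0.963, 0.685, 0.866 and 0.520 CPM in OIS-shp53, and 1.27, 1.92, 1.23, 0.367 and 0.897 CPM with both. None of the 3 comparisons passed, with log2 fold changes of 0.66 (SE 0.25, edgeR adjusted p = 0.101), 0.48 (SE 0.29, edgeR adjusted p = 0.399) and 0.86 (SE 0.38, edgeR adjusted p = 0.104), and the last did without replicate 4 of the double knock-down (log2 fold change 1.09, edgeR adjusted p = 0.0179). IL7 was below the filter. It held 5, 1, 2, 4 and 1 counts in OIS-v-v and 10, 7, 5, 11 and 18 with both hairpins, where all 5 libraries reached or passed the highest control. Without a filter beyond 1 count its log2 fold change was 1.87 (SE 0.50, edgeR adjusted p = 0.0127), in a fit that called 17.8% of 23869 genes, and in fits of the same kind it was 1.01 with shCEBPB (SE 0.57, edgeR adjusted p = 0.383) and 0.41 with shp53 (SE 0.54, edgeR adjusted p = 0.736).

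For the term that asks whether both hairpins together act as the sum of the 2 single ones, edgeR called 0 of 6 members, where 0.0432% of 13873 genes passed. At an unadjusted p under 0.05 there were 2, CSF1 (term -0.59, SE 0.13, edgeR adjusted p = 0.136) and IL24 (-0.65, SE 0.21, edgeR adjusted p = 0.757), and DESeq2 called 1, CSF1 (adjusted p = 0.0147). The same-numbered libraries of this table deviated together, and with the replicate number as a block edgeR called both, CSF1 at -0.60 (adjusted p = 0.00868) and IL24 at -0.64 (adjusted p = 0.0157), where 0.75% of genes passed.

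**Figure D3:**
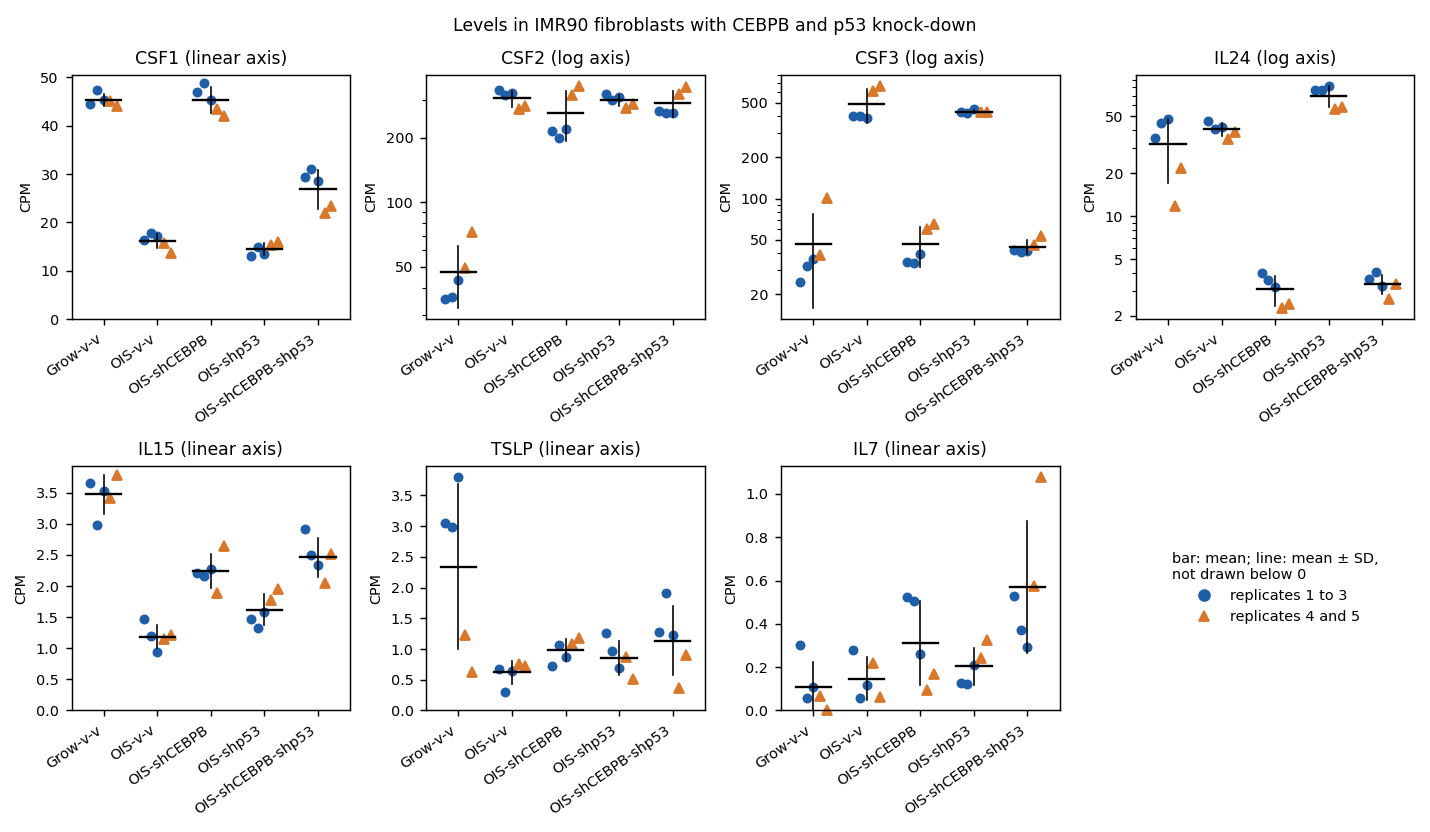
Level of each gene in CPM (vertical axis, linear or log as marked) in 5 libraries per group of growing cells and of senescent cells with empty vectors, shCEBPB, shp53 or both, with a bar at the mean, a line of 1 SD to each side, circles for replicates 1 to 3 and triangles for replicates 4 and 5. IL24 lies between 2.27 and 4.05 CPM in both groups with shCEBPB and between 34.6 and 82.2 CPM in OIS-v-v and OIS-shp53.

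The libraries of this table fell into sets of replicates 1 to 3 and replicates 4 and 5, which the first principal component of the deviations from the group means (43.0% of variance) set apart in all 5 groups. What set them apart is not given in the labels, and the split was made after seeing the data. CSF2 with shCEBPB was lower in the first set (log2 fold change -0.62, edgeR adjusted p = 9.3e-09) and higher in the second (0.27, edgeR adjusted p = 0.00393), and the difference of 0.88 passed its own test (SE 0.08, edgeR adjusted p = 1.46e-07). CSF3 with shp53 was higher in the first set (0.13) and lower in the second (-0.58), with a difference of -0.72 (SE 0.07, edgeR adjusted p = 3.15e-07). Over all genes, the effect differed between the sets in 6.47% and 6.81% of those tested for these 2 comparisons.

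With both hairpins, CSF2 was at -0.30 in the first set and 0.27 in the second (difference 0.58, edgeR adjusted p = 4.18e-06), and CSF3 at -3.25 and -3.69 (difference -0.43, edgeR adjusted p = 0.00137), where 15.6% of genes differed. In OIS-v-v against Grow-v-v, CSF2 was at 3.07 and 2.18 (difference -0.89, edgeR adjusted p = 0.00231), IL24 at 0.02 and 1.14 (difference 1.12, edgeR adjusted p = 0.00502) and TSLP at -2.59 and -0.32 (difference 2.27, edgeR adjusted p = 0.00615), where 29.5% of genes differed. The fall of CSF3 and IL24 and the rise of CSF1 and IL15 with shCEBPB passed in each set alone. In the growing libraries of the second set HMGA1 was also higher, at 1313 and 1889 CPM against 916 to 968 CPM in the first. Over all OIS-v-v libraries HMGA1 ran from 1114 to 1614 CPM with a median of 1174, and in OIS-shp53 from 1274 to 1332 CPM. Its part in the result was not tested.

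**Figure D4:**
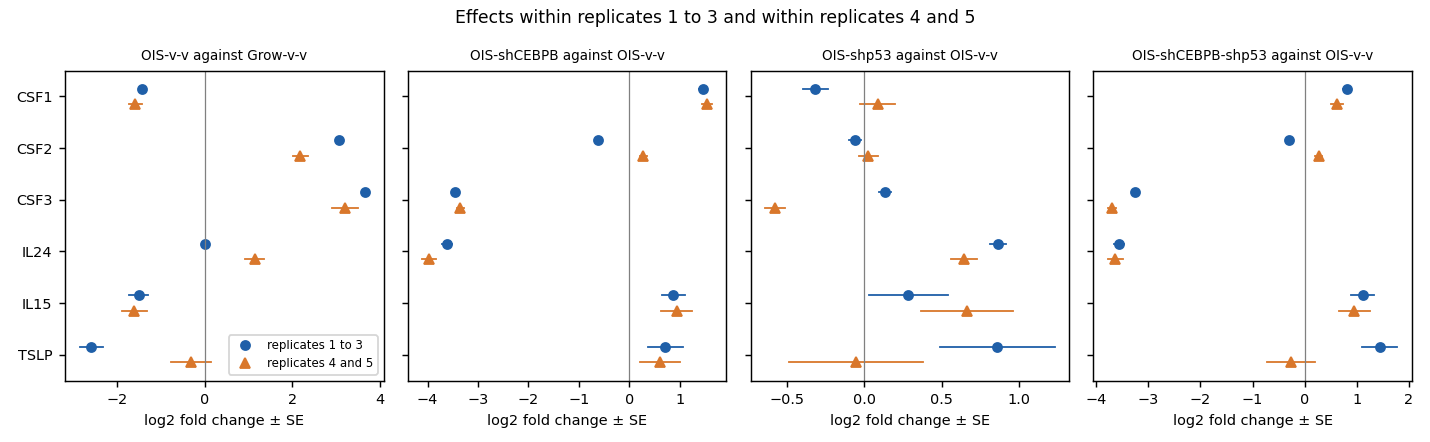
Log2 fold change of each gene except IL7 (horizontal axis, with lines of 1 standard error to each side) fitted on replicates 1 to 3 and on replicates 4 and 5 of the second IMR90 table, for 4 comparisons. CSF2 lies at -0.62 and 0.27 with shCEBPB, and IL24 at -3.62 and -3.97.

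CEBPB itself did not pass with shp53 (log2 fold change 0.14, edgeR adjusted p = 0.277). Fibroblast markers summed to between 13750 and 22890 CPM in all 4 senescent groups, but single markers moved apart. With shCEBPB, COL1A2 averaged 3718 CPM against 2337 in OIS-v-v and VIM 6383 against 5741, both above all controls, and LUM averaged 13.4 against 37.5 CPM, below all controls. With shp53, LUM (53.05 CPM) and PDGFRB (219 CPM against 127) were above all of OIS-v-v. With both hairpins COL1A2 and PDGFRB were above all controls and DCN and LUM below. Their part in the result was not tested.

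The fourth comparison was made in H1299 carcinoma cells. Of 3 members tested, 2 passed the threshold, both higher in H1299-shA1, where 15.6% of 14840 genes did. CSF1 ran from 1.65 to 3.25 CPM (median 2.20) in H1299 and from 2.26 to 5.98 CPM (median 4.05) in H1299-shA1. The groups overlapped, 4 of 6 knock-down libraries were above all controls, and the log2 fold change was 0.78 (SE 0.19, edgeR adjusted p = 0.00823). CSF1 read 5.98, 4.95 and 4.52 CPM in H1299-shA1 replicates 2, 4 and 5, and 3.59, 2.88 and 2.26 in replicates 3, 6 and 7. The first principal component of this table (29.6% of variance) also set these replicates apart. The H1299 replicates with the lowest scores, 1 and 4, held the highest control values, and the part of this axis was not tested. IL7 (ENSG00000104432), on the minus strand at chr8:79587978-79717758, shares 9.49% of its exon bases with ZC2HC1A. It ran from 0.973 to 1.51 CPM (median 1.25, 20 to 33 counts) in H1299 and from 1.59 to 2.87 CPM (median 1.95, 31 to 54 counts) in H1299-shA1. All 6 knock-down libraries were above the 7 controls, with a log2 fold change of 0.70 (SE 0.16, edgeR adjusted p = 0.00444). IL15 ran from 0.408 to 0.973 CPM (median 0.5682) and from 0.618 to 0.878 CPM (median 0.760), with a log2 fold change of 0.20 (95% interval -0.21 to 0.61, edgeR adjusted p = 0.569).

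The other 4 members were near 0 and did not pass the count filter in H1299. CSF2 had 5 counts over the 7 H1299 libraries and 7 over the 6 of H1299-shA1, and TSLP had 5 and 3. CSF3 had 1 count in H1299 and 0 in H1299-shA1, which allows up to 0.0247 CPM (3 counts of the group total, counting error only). IL24 had 0 counts in H1299, which allows up to 0.0199 CPM, and 2 in H1299-shA1. In an edgeR fit without a filter beyond 1 count none of the 4 passed (adjusted p = 0.666 for CSF2, 0.529 for CSF3, 0.316 for IL24 and 0.883 for TSLP). Among epithelial markers KRT8 and KRT18 averaged 495 and 445 CPM in H1299 and 316 and 350 CPM in H1299-shA1. EPCAM, CDH1 and KRT19 averaged 0.147, 0.276 and 0.214 CPM in H1299 and 0.147, 0.172 and 0.138 in H1299-shA1. VIM averaged 1695 and 1989 CPM in these groups, and the leukocyte markers CD68 and ITGAM 46.6 and 10.3 CPM in H1299 and 55.9 and 10.8 in H1299-shA1. The part of these markers in the result was not tested.

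**Figure D5:**
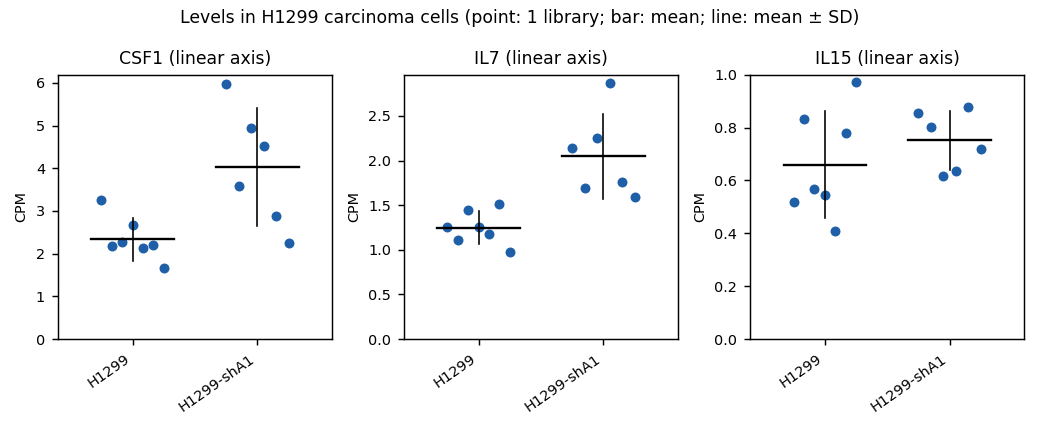
Level of CSF1, IL7 and IL15 in CPM (vertical axis, linear) in the 7 libraries of H1299 and the 6 of H1299-shA1, with a point per library, a bar at the mean and a line of 1 SD to each side. IL7 lies between 0.973 and 1.51 CPM in H1299 and between 1.59 and 2.87 CPM in H1299-shA1, with no overlap.

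Receptors, kinases, STAT factors and feedback inhibitors of these pathways were read from a list of 34 genes, of which 32 were in the tables and 13 to 16 passed the count filter in a comparison. Of the 11 other ligands on it, such as IL34 and FLT3LG, 0 or 1 passed that filter and none was called. The receptor genes for the colony stimulating factors that were analysed, which leave out CSF2RA, were low in IMR90 cells. CSF3R was at 0 counts in all groups but OIS-shA1, at 0.00739 CPM on average, CSF2RB averaged 0 to 0.0397 CPM, and CSF1R averaged 1.05 ± 0.281 CPM in Grow and 3.62 ± 0.650 CPM in OIS (SD, n = 8), with a log2 fold change of 1.83 (SE 0.18, edgeR adjusted p = 1.91e-10). In the second table CSF1R did not pass (0.25, edgeR adjusted p = 0.515).

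IL7R, the IL-7 receptor chain that TSLP also uses, was abundant, at 223 ± 15.4 CPM in Grow and 178 ± 19.5 CPM in OIS (log2 fold change -0.32, edgeR adjusted p = 1.12e-05), although the common gamma chain IL2RG averaged 0.00957 and 0.00718 CPM there. CRLF2, a further receptor gene on the list, was not analysed. IL15RA, which presents IL-15, averaged 16.6 ± 1.53 CPM in Grow and 8.48 ± 1.25 CPM in OIS and fell in both tables, as did IL15 (log2 fold changes -0.98 and -0.71, edgeR adjusted p = 1.16e-11 and 0.00188). With shCEBPB and shp53 together it rose by 0.56 (SE 0.12, edgeR adjusted p = 0.00402), as IL15 did. In other comparisons the 2 genes differed in their calls. IL15RA rose in Grow-shA1 (0.32, edgeR adjusted p = 9.48e-04) and OIS-shA1 (0.42, edgeR adjusted p = 0.00173), where IL15 did not pass, and with shCEBPB alone IL15 rose while IL15RA did not pass (0.28, edgeR adjusted p = 0.241). IL20RB, a chain of the IL-24 receptor, averaged 0.517 CPM in Grow, 2.26 in OIS and 0.741 in OIS-shA1, lower in the last than in OIS (log2 fold change -1.62, SE 0.28, edgeR adjusted p = 3.91e-05). In the second IMR90 table IL20RB averaged 0.670 CPM in Grow-v-v and 0.695 in OIS-v-v and was not called. Its partners IL20RA and IL22RA1 averaged at most 0.0450 and 0.0250 CPM in an IMR90 group.

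Among the 15 list genes tested in OIS against Grow, 4 rose and 7 fell, a share near the 74.8% of all genes. Of the feedback inhibitors, which switch off JAK and STAT signalling, SOCS3 rose (log2 fold change 1.43 in OIS and 1.58 in OIS-v-v), and SOCS1 (-1.74 and -1.87) and SOCS2 (-2.01 and -1.08) fell. With shCEBPB, 3 of 14 rose and 1 fell (17.1% of all genes were called), with SOCS3 at -0.78 (edgeR adjusted p = 7.61e-07), SOCS1 at 0.80 (edgeR adjusted p = 0.0224) and SOCS2 at 1.01 (edgeR adjusted p = 7.78e-07), in a comparison that shares the OIS-v-v libraries with the one before. With shp53, 1 of 15 rose (SOCS2, 0.48) and 1 fell (SOCS3, -0.22), where 4.44% of all genes were called. With both hairpins, 4 of 14 rose and 1 fell (33.6% of all genes were called), and SOCS3 was at -1.09.

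With HMGA1 knock-down, 5 of 15 rose and 4 fell in growing cells, 4 of 15 rose and 3 fell in senescent cells, and 2 of 13 rose and 4 fell in H1299, where 29.9%, 35.9% and 15.6% of all genes were called. STAT3, the factor downstream of IL-24 and G-CSF, averaged 157 CPM in Grow and 134 in Grow-shA1, 146 in OIS and 113 in OIS-shA1, and 129 in H1299 and 108 in H1299-shA1, and was lower in all 3 comparisons with no overlap between groups. STAT5B, a factor downstream of IL-7, IL-15 and GM-CSF, was higher in the same 3 comparisons, by 0.23 (edgeR adjusted p = 4.01e-04), 0.25 (edgeR adjusted p = 5.97e-04) and 0.21 (edgeR adjusted p = 0.0321) on the log2 scale, with overlap between groups. JAK3, the kinase of the common gamma chain, was lower, at -1.06 in Grow-shA1 (SE 0.33, edgeR adjusted p = 0.0168), -1.11 in OIS-shA1 (SE 0.30, edgeR adjusted p = 0.00427) and -0.61 in H1299-shA1 (SE 0.10, edgeR adjusted p = 2.23e-04). In IMR90 cells JAK3 was low, averaging 1.12 CPM in Grow, 0.544 in Grow-shA1, 1.14 in OIS and 0.485 in OIS-shA1. The groups overlapped in both IMR90 comparisons, with 5 to 36 counts per library in Grow and 3 to 15 in Grow-shA1. SOCS3 was called higher in Grow-shA1 (51.4 CPM on average against 43.65 in Grow), rose in OIS-shA1 (0.48, edgeR adjusted p = 3.5e-07) and fell in H1299-shA1 (-0.18, edgeR adjusted p = 0.0204).

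Genes with patterns like those of the members were sought by Pearson's correlation of log2 CPM over the 32 libraries of the first table, among 12565 genes. The libraries share the 4 groups, so that a correlation mostly reflects group differences, and it is given as a description. CSF3 was most like IL1B (r = 0.989, and 0.983 over the 25 libraries of the second table), ZC3H12A (0.983 and 0.778) and NRG1 (0.978 and 0.734). CSF2 was most like SERPINB2 (0.982 and 0.844), CXCL5 (0.982 and 0.671) and CXCL3 (0.981 and 0.844). CSF1 was most like SPARC (0.989 and 0.648), KIF18B (0.988 and 0.559) and LOXL2 (0.988 and 0.709).

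IL24 was nearest to RIPOR3 (r = 0.915), COL4A6 (0.879) and LSAMP (0.871), but over the second table these were at 0.205, -0.055 and -0.035. IL15 was nearest to MIR22HG (0.918 and 0.462), BORA (0.917 and 0.72) and RHOD (0.909 and 0.385), and TSLP to PPWD1, at 0.737 and 0.088. Between members, CSF1 and CSF3 ran opposite in both tables (-0.914 and -0.896), CSF2 and CSF3 were at 0.955 and 0.506, and IL24 and CSF3 at 0.079 and 0.699.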

How the data were processed

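RNA-seq counts per gene were taken as deposited: per the file headers and the study's methods, the authors used STAR for alignment to hg19 and featureCounts for counting per GENCODE gene, without strand, as fragments in the first IMR90 table and as reads in the H1299 table. The second IMR90 table has no header that gives its settings. The labels name 2 stranded library kits and 2 instruments but do not assign them to libraries, so neither could be separated from the groups.

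Each table was fitted on its own with edgeR 4.0.16 in R 4.3.3 (quasi-likelihood F test, TMM factors, filterByExpr with a minimum count of 10, no covariate), with Benjamini-Hochberg adjustment over all genes tested and a threshold of 0.05. Only the groups compared entered a fit. SE was taken from the F statistic, and the 95% intervals are normal ones from it. For CPM, the TMM factors came from all libraries in a table. Libraries held 1903607 to 24890797 counts (median 18090386 over 70 libraries), and interval limits for 0 counts cover counting error only. Scripts were tested on simulated data, and no library was found to be deposited more than once. Gene symbols were matched for 95.9% of 44503 gene identifiers.

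Named genes were the 7 members, the targeted genes HMGA1 and CEBPB, related-list genes that passed or encode receptors, and the 3 genes most correlated with each member. The members and lists were chosen with earlier results of these data known. The related genes CSF2RA and CRLF2 and the marker PECAM1 were not analysed here, and a further targeted gene is not reported here. Alternatives were library sizes without TMM, DESeq2 1.42.0, no filter, 10 counts in every library, all groups in 1 fit, leaving out each library, the replicate number as a block and, chosen after seeing the data, replicates 1 to 3 and 4 to 5 apart. In the second IMR90 table same-numbered libraries deviated together in every pair (correlation 0.152 to 0.638 of their deviations from the group means). Of 5 libraries, 3 were best matched to their own number in OIS-v-v against Grow-v-v, 4 with shCEBPB, 3 with shp53 and 2 with both hairpins. The split into replicates 1 to 3 and 4 to 5 also makes same-numbered libraries deviate together, so pairs within a set were not established. The numbers were used as a block, a pairing that comes from the data and not from the labels.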

Additional observations from a re-analysis of the deposited data

Results flagged for a closer look

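Of 75 combinations of gene and group looked at, 9 had a library far from the others by the ratio of gap to range. The cut-offs are made for about 1 in 20 with normally distributed values. Low counts need not follow that, so 9 of 75 is not read as an excess. Grow replicate 1 was the highest of its 8 libraries for CSF2, at 64.13 CPM (the others 31.6 to 44.5 CPM), and for CSF3, at 26.71 CPM (1.63 to 12.04 CPM). IL15 in Grow replicate 2 was at 5.406 CPM (2.72 to 3.98 CPM). CSF3 in Grow-v-v replicate 5 was at 100.2 CPM (24.8 to 38.9 CPM) and in OIS-shp53 replicate 3 at 452.9 CPM (424 to 429 CPM). TSLP in OIS-v-v replicate 2 was low, at 0.2975 CPM or 5 counts (0.644 to 0.761 CPM). IL7 in OIS replicate 6 was at 0.7736 CPM or 14 counts (0 to 0.287 CPM). In H1299, CSF2 in replicate 1 (0.1734 CPM, 4 counts) and CSF3 in replicate 2 (0.0462 CPM, 1 count) stood out by a few counts only. All other H1299 libraries were at 0 for CSF3, where the rule always flags the remaining library.

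The effect of shA1 differed between senescent and growing cells for CSF3, by -2.659 on the log2 scale, and for IL24, by -1.223 (edgeR interaction term, adjusted p = 9.5e-06 and 6.18e-04). All 8 Grow-shA1 libraries were above the mean of Grow for both genes.

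Between replicates 1 to 3 and replicates 4 and 5 of the second IMR90 table, a split made after seeing the data, the effects of several members differed by an edgeR test of the difference. For OIS-v-v against Grow-v-v these were CSF2 (-0.889), IL24 (1.121) and TSLP (2.265). With shCEBPB it was CSF2 (0.881), with shp53 it was CSF3 (-0.716), and with both hairpins they were CSF2 (0.576) and CSF3 (-0.426).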

How the results depend on the processing

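Of 375 member log2 fold changes recomputed under the alternatives other than leaving out a library, 343 kept direction and side of the threshold, and 863 of 879 did with 1 library left out. IL24 in OIS against Grow, not called, changed sign with library sizes alone (0.086), with the replicate block (0.091) and over leave-outs (-0.229 to 0.137). CSF1 in the interaction of shA1 with OIS, not called, was -0.08 with library sizes alone and -0.006 to 0.101 over leave-outs. With replicates 4 and 5 only, CSF2 was 0.274 with shCEBPB, 0.269 with both hairpins and -0.03 in their interaction, TSLP was -0.055 with shp53 and -0.263 with both, and with shp53 CSF1 was 0.085 and CSF2 0.024. CSF2 with shp53 ran from -0.068 to 0.002 over leave-outs, CSF3 with shp53 was 0.134 in replicates 1 to 3 only, and CSF2 with both hairpins was 0.035 with library sizes alone. The cause was not tested. With shp53, 3 members were called in replicates 1 to 3 and 2 in replicates 4 and 5, against 1 in all. In the interaction of shCEBPB with shp53, where edgeR called 0, DESeq2 called 1 (CSF1), replicates 1 to 3 called 2 (CSF2 and IL24, not CSF1) and replicates 4 and 5 called 1 (CSF1, not IL24).

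With the replicate block, that interaction gave 2 calls among members (CSF1 and IL24) and 104 genes in place of 6, and the block moved the genes called with shCEBPB from 2290 to 4270 and with shp53 from 594 to 3037. It changed no other member call in that table. In the other tables same-numbered libraries did not deviate together in every pair (correlations -0.2 to 0.197 and -0.207 to 0.369), and the block took CSF1 in Grow-shA1 to an edgeR adjusted p of 0.0522. CSF2 in the interaction of shA1 with OIS passed with library sizes alone (-0.38, edgeR adjusted p = 0.0259) and without Grow replicate 1.

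Genes called with shp53 were 594 with edgeR, 1056 with DESeq2 and 336 to 938 with 1 library left out. Genes called in the interaction of shCEBPB with shp53 were 29 with DESeq2, 3 with no filter and 9 with 10 counts in every library. In replicates 1 to 3 and in 4 to 5, the genes called were 4408 and 3302 with shCEBPB, 4578 and 717 with shp53, 7240 and 3857 with both and 463 and 294 in the interaction. Library sizes alone moved the median log2 fold change of all genes by 0.19 in OIS against Grow and -0.11 in the interaction of shA1 with OIS, and the share of calls that were higher from 51.9% to 66.2% in OIS against Grow, 49.4% to 60.3% in Grow-shA1, 52.3% to 27.8% in OIS-shA1, 51.7% to 20.4% in that interaction, 53.2% to 70.9% with shCEBPB and 50.9% to 71.0% with both. A minimum of 10 counts in every library left TSLP untested except in Grow-shA1 against Grow, and IL15 untested in H1299 and in fits with the OIS libraries of the first table. IL7 in IMR90 cells and CSF2, CSF3, IL24 and TSLP in H1299 were below the count filter, and fits without it rest on few counts.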
